A study of Mus musculus with 2688 samples.

Results

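Microglia of the spinal cord were compared between embryos and 16-week-old mice, with 4 replicates at each age. Microglia are the macrophages that live in the brain and spinal cord. Single cells of CD1 mice, an outbred strain, had been sorted by flow cytometry into plates, and a full-length SmartSeq2 library had been made from each cell. The members of the comparison are all wells labelled as spinal cord at these 2 ages that held at least 500 detected genes and at most 20% mitochondrial counts. This kept 174 of 190 embryonic wells and 165 of 190 wells of 16 weeks, 339 of the 2402 cells kept in the whole series. Their counts were summed per replicate, which gave 8 of the series' 51 region samples, with 46, 45, 42 and 41 cells in embryonic replicates 1 to 4 and 47, 44, 42 and 32 cells at 16 weeks.

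All samples are labelled WT, with no treatment given. The embryonic group is labelled only as embryonal, with no day of gestation, and neither age has a stated sex. The mice had been perfused, the cells enriched on a Percoll gradient, and antibodies to CD11b, CD45, Ly6C, Ly6G and CD206 used in the sort, without the gates being given. CD206 is the product of Mrc1, a marker of macrophages at the borders of the nervous system, and the labels do not say whether CD206-positive cells were kept. The series' design gives 3 to 4 replicate mice per region and age, and the labels do not say whether a replicate is exactly 1 mouse. Each age of the spinal cord lay on its own plate, so that age and plate cannot be told apart within this region.

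Microglia arise from yolk sac macrophages that enter the embryonic nervous system, multiply there and then become long-lived cells that renew slowly. In the embryo they clear dying cells and debris and shape axon tracts and vessels. In the adult they survey the tissue through purinergic and chemokine receptors, and they depend on the growth factor receptor CSF1R and on transforming growth factor beta. Genes that mark this adult state, such as Tmem119 and P2ry12, are called homeostatic.

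Total counts were 12996779 to 15395067 per embryonic region sample and 6343182 to 8077594 at 16 weeks, with median depths of 340896.5 and 164039 counts per cell. Defining markers of microglia were found at both ages, 8 of 8 with reads, at a summed level of 33560 to 37810 CPM in embryos and 56230 to 58300 CPM at 16 weeks. CPM, used for every level here, are a gene's counts relative to the total of its region sample, so they give shares of the counts rather than amounts per cell. Levels of single genes were TMM scaled, with factors of 0.9641 to 1.059. Summed levels of cell type markers and the mean levels of Cd79b were not. Spike-in RNA took 0.124% to 0.187% of the counts of embryonic region samples and 0.269% to 0.337% of those of 16 weeks. Markers of neutrophils and of T and NK cells summed to at most 1.98 CPM at either age. Monocyte, neuron, astrocyte, endothelial and erythroid markers summed to at most 81.3 CPM, B cell markers to at most 161 CPM and oligodendrocyte markers to at most 263 CPM.

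In embryos a share of the cells was dividing, and levels of Apoe, Fcrls, actin genes and several glycolytic enzymes were higher than in adults. At 16 weeks 14 of 25 homeostatic genes, both transforming growth factor beta receptors, 11 of 25 cytokine receptors and both classical MHC class I heavy chains were higher. In all, edgeR's quasi-likelihood test with Benjamini-Hochberg adjustment called 932 of 11836 genes at an adjusted p under 0.05, a background of 7.87%. Of these, 415 were higher at 16 weeks (3.51% of the genes tested) and 517 were lower (4.37%). The median log2 change was 1.63 among the higher calls, -2.04 among the lower calls and 0.0264 over all genes tested. The change was at least 2-fold for 806 called genes and at least 10-fold for 266. The ranges of the 2 ages did not overlap for 2258 of the genes tested (19.1%) and for 923 of those called. Called genes with 0 reads in all 4 region samples of 16 weeks numbered 54, and 1 had 0 reads in all 4 of the embryos. The count of calls fell to 563, 502, 609 and 523 without embryonic replicates 1, 2, 3 and 4, and lay between 766 and 829 without any 1 region sample of 16 weeks. In these fits 4 to 8 cytokine receptors were called higher. Tgfbr2, 1 of the 2 transforming growth factor beta receptors, lost its call in 6 of the 8.

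Homeostatic genes were mostly higher at 16 weeks, with 14 of 25 members higher and 2 lower, a median log2 change of 0.758. Selplg, the P-selectin ligand, had levels of 970, 679, 942 and 792 CPM in the embryonic replicates and of 6708, 6670, 7518 and 7457 CPM at 16 weeks. Every region sample of 16 weeks lay above every embryonic one, and the fold was 8.38 (log2 3.07, SE 0.13; edgeR adjusted p = 2.49e-06), with the smallest p of all genes. Tmem119, a microglial membrane protein, had levels that rose 4.66-fold, from 1599, 1155, 1423 and 1184 CPM to 5741, 6388, 5992 and 6830 CPM (edgeR adjusted p = 1.88e-05). Cst3, the secreted protease inhibitor cystatin C, rose 4.99-fold, from 8063, 6922, 8979 and 6177 CPM to 47810, 33710, 33230 and 35580 CPM (edgeR adjusted p = 1.88e-05). Its groups were far apart, and replicate 1 stood above the other 3 of its age. Levels per kilobase of exon were ranked among tested genes, leaving out mitochondrial genes and duplicated symbols. By this ranking Cst3 became the gene with the highest level at 16 weeks, at 29680 CPM per kilobase against 5952 in embryos.

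Ctss, the lysosomal protease cathepsin S, rose 2.80-fold from 4750 ± 311 to 13280 ± 1165 CPM (SD, n = 4 each; edgeR adjusted p = 1.88e-05). Per kilobase it ranked 3 at 16 weeks among the genes ranked. The surveillance receptors rose by smaller folds. P2ry13, an ADP receptor, rose 2.56-fold, P2ry12, the ADP receptor that steers microglial processes, 1.93-fold, and Cx3cr1, the fractalkine receptor, 1.69-fold. Gpr34, a lysophosphatidylserine receptor, rose 3.28-fold and Olfml3, a secreted matrix protein, 2.95-fold. Csf1r itself, the receptor needed for survival, went from 10060 ± 1095 to 12830 ± 453 CPM, a 1.28-fold rise (edgeR adjusted p = 0.0341) whose call was lost in 7 of the 8 fits that left out 1 region sample (adjusted p up to 0.109). Trem2, a lipid-sensing receptor, Sall1, a transcription factor of microglial identity, and Sparc, a matrix protein, did not pass. Trem2 had 1346 ± 169 CPM in embryos and 1551 ± 372 CPM at 16 weeks (edgeR adjusted p = 0.574), and Sall1 343 ± 38.2 and 432 ± 112 CPM (edgeR adjusted p = 0.421).

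The list held 2 genes that went the other way, and 3 and 4 were lower without replicates 2 and 4 of 16 weeks. Fcrls, an Fc receptor-like protein used as a microglial marker, had 5437, 5051, 5044 and 5712 CPM in embryos and 797, 345, 484 and 473 CPM at 16 weeks. It fell 10.1-fold (log2 -3.34, SE 0.23; edgeR adjusted p = 2.45e-05). In cells thinned to 42049 reads each, Fcrls had reads in 98.7% of embryonic cells and 44.2% of cells of 16 weeks, so that both the share of cells and the level were lower. Crybb1, a crystallin, fell 12-fold, from 653, 388, 744 and 556 CPM to 39.7, 60.8, 48 and 46.2 CPM (edgeR adjusted p = 2.45e-05), with reads in 84.8% and 35.4% of thinned cells. On GRCm38 Tmem119 spans bases 113793729 to 113800516 of chromosome 5 and Cst3 148871722 to 148875692 of chromosome 2.

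**Figure D1:**
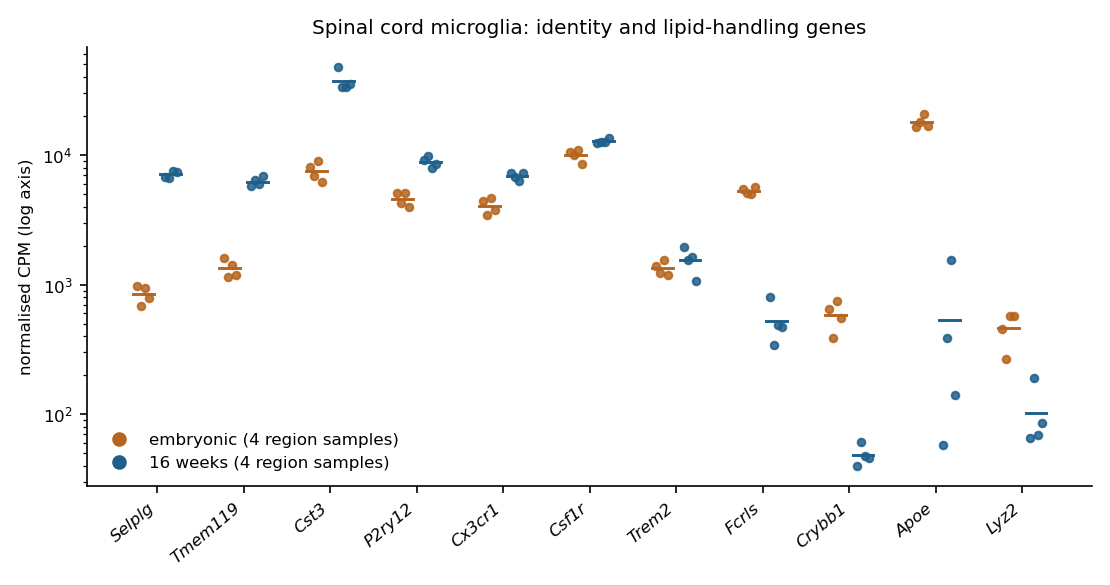
Normalised CPM (y axis, log scale) of 11 genes in each of the 4 embryonic and 4 16-week region samples; points are region samples and lines the means. Selplg, Tmem119 and Cst3 lie higher at 16 weeks in every region sample, Fcrls, Crybb1, Apoe and Lyz2 lower, and Trem2 overlaps.

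Of 23 tested genes of phagocytosis and lipid handling 11 were lower at 16 weeks, 2 were higher and 10 did not pass (median log2 change -1.63). Apoe, the lipid carrier apolipoprotein E, had the highest level per kilobase in embryos among the genes ranked, at 8382 CPM per kilobase. It ranked 122 at 16 weeks with 250.5. Its levels were 16530, 17910, 20580 and 16660 CPM in embryos and 57.8, 391, 1552 and 142 CPM at 16 weeks. The embryonic values were close together and the later ones spread widely, and the fold was 33.5 (log2 -5.06, SE 0.92; edgeR adjusted p = 0.00937). Apoe had reads in 174 of 174 embryonic cells, with a median of 4228 and a minimum of 3 per cell, and in 38 of 165 cells of 16 weeks. The 4 blank wells of the embryonic plate held 1 to 3 Apoe reads each and those of the 16-week plate 0. The single cell with the most Apoe reads, of replicate 3, held 30.7% of all Apoe reads at 16 weeks, and the leading 5 cells held 74.9%.

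Several secreted and lysosomal members of this list fell. Gas6, a ligand that bridges dying cells to TAM receptors, fell 6.60-fold, from 509, 606, 930 and 768 CPM to 121, 48.8, 82.1 and 174 CPM (edgeR adjusted p = 0.00147). Its receptors split. Axl had 173 ± 78.7 CPM in embryos and 20.7 ± 15.7 CPM at 16 weeks, an 8.35-fold fall (edgeR adjusted p = 0.0469) that lost its call in 7 of the 8 fits without 1 region sample (adjusted p up to 0.121). Mertk rose 2.12-fold from 374 ± 46.9 to 795 ± 103 CPM (edgeR adjusted p = 0.00155). Lyz2, lysozyme, fell 4.54-fold from 467 ± 143 to 103 ± 59.4 CPM (edgeR adjusted p = 0.00654), with reads in 69.0% and 24.5% of thinned cells. Ctsb, cathepsin B, fell 3.08-fold from 10770 ± 1707 to 3493 ± 968 CPM (edgeR adjusted p = 0.000764). The tetraspanin genes of the list moved in opposite directions, Cd63 falling 3.74-fold and Cd9 rising 2.18-fold, from 492 ± 49.4 to 1075 ± 184 CPM (edgeR adjusted p = 0.00125). Tyrobp, the adaptor of TREM2, fell 1.51-fold from 1490 ± 64.9 to 989 ± 138 CPM (edgeR adjusted p = 0.0144).

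Spp1, osteopontin, did not pass despite a large difference in means. Its levels were 918, 1552, 1384 and 694 CPM in embryos and 0, 0, 292 and 0 CPM at 16 weeks (edgeR adjusted p = 0.277). All 2355 reads of 16 weeks came from 1 cell of replicate 3, and 73 of 174 embryonic cells had reads. Lpl, lipoprotein lipase, and Igf1, insulin-like growth factor, were likewise low at 16 weeks without a call. Lpl had 195 ± 27.7 and 24.3 ± 23.1 CPM (edgeR adjusted p = 0.100) and Igf1 53.2 ± 23.6 and 2.87 ± 4.09 CPM (edgeR adjusted p = 0.0980). Without any 1 region sample 7 to 12 members of the list were lower, and the count fell to 7 without embryonic replicate 1, 3 or 4.

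Border macrophage markers moved with these genes. Their summed level was 347 to 452 CPM in embryos, led by Stab1, with 9 of 10 markers having reads and Lyve1 at 0. At 16 weeks it was 51.3 to 139 CPM, with Cbr2, Folr2 and Ms4a7 at 0. Of 5 members of the wider border macrophage list that were tested, Dab2, Stab1 and Fcna were lower and 0 higher. Stab1, a scavenger receptor, fell 2.99-fold from 292 ± 49.4 to 97.6 ± 46.8 CPM (edgeR adjusted p = 0.0223), Dab2, an endocytic adaptor, 35.3-fold and Fcna, a lectin, 61.4-fold. The calls were lost for all 3 without embryonic replicate 1 or 4 (adjusted p between 0.0537 and 0.130), Stab1 also without replicate 4 of 16 weeks (0.0596), and Fcna without any 1 of 7 region samples. Mrc1 itself had 80.9 ± 19.7 CPM in embryos and 3.51 ± 5.83 CPM at 16 weeks (edgeR adjusted p = 0.0531), with reads in 14.6% and 2.04% of thinned cells. The part of these cells in the levels of Apoe, Lyz2 and Gas6 was not tested.

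Lysosomal genes split, with 5 of 26 tested members higher and 9 lower at 16 weeks (median log2 change -0.226). The proteases Ctss and Ctsh were among those that rose. Ctsh, cathepsin H, rose 3.88-fold, from 286, 311, 331 and 306 CPM to 1241, 1137, 1037 and 1371 CPM (edgeR adjusted p = 2.31e-05), and Ctsc, cathepsin C, 1.73-fold. Grn, progranulin, which regulates lysosomal function, fell 2.02-fold from 4299 ± 357 to 2123 ± 151 CPM (edgeR adjusted p = 0.000200). Gusb, beta-glucuronidase, fell 3.13-fold and Npc2, a cholesterol transfer protein of the lysosome, 1.65-fold. Lamp1, a membrane protein of lysosomes, fell 1.54-fold and Ctsd, cathepsin D, 1.51-fold. Lgmn, legumain, was at 9668 ± 812 and 9172 ± 376 CPM and did not pass (edgeR adjusted p = 0.655). The count of lower members was 6 without embryonic replicate 1, 2 or 3, and 7 or 8 without any other.

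Transporters that export cholesterol fell. Abcg1, a transporter that passes cholesterol to lipoproteins, had 822, 725, 757 and 897 CPM in embryos and 74.5, 125, 67.6 and 57.6 CPM at 16 weeks, a 9.87-fold fall (log2 -3.30, SE 0.25; edgeR adjusted p = 4.02e-05). Abca1, the transporter that loads apolipoproteins, fell 5.17-fold from 711 ± 87.8 to 137 ± 38.2 CPM (edgeR adjusted p = 0.000222). Reads of Abcg1 were found in 88.6% of embryonic and 23.1% of 16-week thinned cells, those of Abca1 in 87.3% and 21.1%. Of 21 tested members of the synthesis and efflux list, these 2 were lower and Msmo1, a sterol oxidase, was the 1 called higher, by 2.93-fold (edgeR adjusted p = 0.0396). The call of Msmo1 was lost without cycling cells and in 6 of the 8 fits without 1 region sample (adjusted p up to 0.117).

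Complement genes changed in both directions, 3 of 13 tested members higher and 3 lower. C1q, made of the products of 3 genes, tags synapses and debris. C1qc fell 1.53-fold from 3574 ± 366 to 2338 ± 213.7 CPM (edgeR adjusted p = 0.00593). C1qa went from 3063 ± 97.9 to 3934 ± 210 CPM (edgeR adjusted p = 0.0215) and C1qb from 5335 ± 467 to 3926 ± 477 CPM (edgeR adjusted p = 0.0322). These last 2 calls were lost in 6 and 5 of the 8 fits without 1 region sample (adjusted p up to 0.0940 and 0.0813). Itgb2, the beta chain of complement receptor 3, rose 2.5-fold from 333 ± 41.2 to 833 ± 139 CPM (edgeR adjusted p = 0.000938). Cfb, factor B of the alternative pathway, had 3.68, 9.99, 7.41 and 6.17 CPM in embryos and 0 reads at 16 weeks. It was at least 62.8-fold lower, against a floor of 3 reads over the group (edgeR adjusted p = 0.0162). Its call was lost without embryonic replicate 2, 3 or 4 (adjusted p 0.0595, 0.0534 and 0.0560). Without 1 region sample 1 or 2 members of the list were higher and 1 to 3 lower.

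Dividing cells were found in embryos and, at the depth compared, not at 16 weeks. Cells with reads of 5 or more of 25 genes of G2 phase and mitosis were counted as cycling, after thinning to 42049 reads, which left out 16 shallower embryonic cells and 18 of 16 weeks. The share was 21.4%, 38.6%, 31.6% and 41.2% in the embryonic replicates, 33.2% ± 8.84 (SD, n = 4), or 52 of 158 cells. At 16 weeks it was 0 of 147 cells, which allows a share of up to 2.04%. With 3 or more genes required, the mean share was 38.3% in embryos and 2.78% at 16 weeks, where replicate 4 reached 11.1%. With 8 or more it was 25.8% and 0%. The groups did not overlap, with a two-sided exact permutation p of 0.02857, the smallest that the 70 splits of 4 against 4 allow, and adjusted p = 0.02857 over the 3 values per region sample tested. Without thinning, 63 of 174 embryonic cells and 2 of 165 cells of 16 weeks were cycling. At 3 weeks 5 of 171 thinned spinal cord cells were, 1.72% to 3.70% per region sample.

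Cells of 16 weeks also had fewer detected genes and a lower mitochondrial share. The median number of genes per thinned cell was 3270 ± 173 in embryos and 2016 ± 72.2 at 16 weeks, and the median mitochondrial share 3.43% ± 0.394 and 2.14% ± 0.28 (SD, n = 4). Neither pair of groups overlapped, each with exact permutation p = 0.02857.

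**Figure D2:**
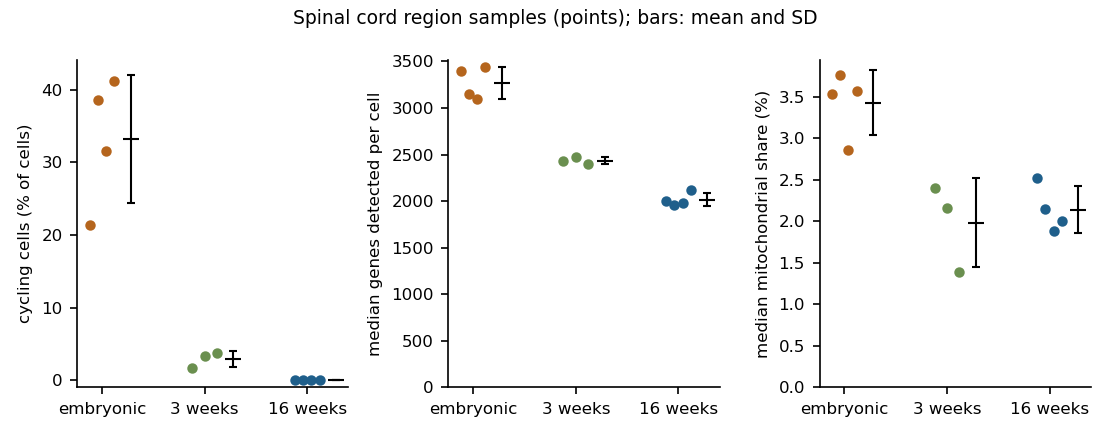
Share of cycling cells, median genes detected per thinned cell and median mitochondrial share (y axes) of each spinal cord region sample at 3 ages; points are region samples and bars the mean and SD. The embryonic points lie above those of both later ages in each panel, and the share of cycling cells is 0 in the 4 region samples of 16 weeks.

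Genes of G2 phase and mitosis were lower at 16 weeks in 19 of 25 cases, with 0 higher and a median log2 change of -7.35. Several were not found at all in adults. Ube2c, which adds ubiquitin for the anaphase-promoting complex, had 62.4, 127, 21.9 and 128 CPM in embryos and 0 reads at 16 weeks, at least 807.3-fold lower. Kif11, the spindle motor, was at least 680.6-fold lower and Hmmr, a spindle-associated hyaluronan receptor, at least 526.2-fold lower. Aurka, a mitotic kinase, had 52.2, 127, 131 and 94 CPM in embryos and 0, 0.156, 0.124 and 0 CPM at 16 weeks (edgeR adjusted p = 4.20e-05). These were 5621 against 2 reads, a ratio of 1387 with a 95% counting interval of 383.7 to 11450. Such intervals take each read as independent and leave out the spread between cells and between region samples. Ccnb2, cyclin B2, had 6309 against 3 reads (ratio 1038, interval 354.9 to 5033). Nusap1, a spindle protein, had 3351 against 1 (1654, 296.6 to 65330). Cenpe, a kinetochore motor, fell 334-fold and Mki67, the Ki-67 proliferation antigen, 221-fold, from 80.3, 422, 144 and 392 CPM to 2.03, 0.156, 1.12 and 1.30 CPM.

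Other genes of cell division, outside the list, stood among the largest falls. Ccnf, cyclin F, had 91.9, 228, 140 and 159 CPM in embryos and 2 reads in all at 16 weeks (ratio 2155, interval 596.4 to 17800; edgeR adjusted p = 1.88e-05). Pbk, a kinase of mitosis, was at least 694.1-fold lower, Cdca2, a phosphatase regulator of chromosomes, at least 533.1-fold and Cep55, a protein of abscission, at least 468.9-fold. For fits without cycling cells, cells with reads of 5 or more of the 25 G2 and mitosis genes, without thinning, were left out. These were 63 of 174 embryonic cells and 2 of 165 cells of 16 weeks. Such a fit left 5 of the 25 genes above the filter on low counts and 0 called. The same 25 genes defined the cells left out, so a loss of their counts was built into the rule. Without any 1 region sample 14 to 18 of the 25 were lower.

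Replication genes were lower in 8 of 24 tested cases and higher in 0, with a median log2 change of -2.92 and 24 of 24 changes below 0. Uhrf1, which guides maintenance of DNA methylation, fell 352-fold, from 52.8, 62.5, 128 and 79.2 CPM to 0.135, 0.625, 0.124 and 0 CPM (edgeR adjusted p = 0.000268). Gins2, a helicase cofactor, had 2122 against 1 reads (ratio 1047, interval 187.7 to 41380). Helicase subunits fell too, Mcm2 180-fold from 258 ± 103 to 1.42 ± 1.76 CPM (edgeR adjusted p = 0.00116) and Mcm5 75.8-fold from 328 ± 81.6 to 4.36 ± 4.42 CPM (edgeR adjusted p = 0.00226). Rrm2, a ribonucleotide reductase subunit, fell 163-fold. Pcna, the sliding clamp, which is also used in DNA repair, fell by less, 4.27-fold from 92.3 ± 13.2 to 21.6 ± 4.57 CPM (edgeR adjusted p = 0.00397). Without cycling cells 4 of 24 were called lower, and without any 1 region sample 6 to 10 were.

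Of 22 tested cyclins, inhibitors and E2F regulators 5 were lower and 1 higher (median log2 change -0.473), and 3 to 5 were lower without 1 region sample, 3 of them without embryonic replicate 2. Without cycling cells 3 were lower and 0 higher. Ccne1, cyclin E1, had 31.8, 156, 78.5 and 43.6 CPM in embryos and 0 reads at 16 weeks, at least 714.5-fold lower. E2f8, a repressor of the E2F family, was at least 217.6-fold lower, a call lost without embryonic replicate 2 (edgeR adjusted p = 0.0529). The kinases that act with D cyclins fell by less: Cdk4 2.62-fold from 414 ± 74.9 to 158 ± 25.8 CPM (edgeR adjusted p = 0.00193) and Cdk6 3.36-fold from 161 ± 10.2 to 48.1 ± 12.3 CPM (edgeR adjusted p = 0.00284). E2f3, an activator of the family, was the 1 gene called higher, with 10.4 ± 6.07 and 66.4 ± 43.4 CPM (edgeR adjusted p = 0.0370), and lost its call in 7 of the 8 fits without 1 region sample (adjusted p up to 0.109).

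Promoters of the replication and the G2 and mitosis lists are shown because members of both fell, 8 of 24 and 19 of 25 tested. Replication genes are classic targets of E2F factors, and mitotic genes often carry CCAAT boxes, which the factor NF-Y binds. In RefSeq promoters of GRCm38.p6, 250 bases before to 50 after each start, an E2F site was searched as TTCCCGC or TTGGCGC and a CCAAT box as CCAAT, on both strands. Of all 32851 promoters, 6.81% held the E2F letters and 37.4% CCAAT. The 27 promoters of the 22 matched replication genes held E2F letters in 51.9% and CCAAT in 59.3% of cases. The 22 promoters of the 22 matched G2 and mitosis genes held E2F letters in 13.6% and CCAAT in 81.8%. Among members past the threshold, the 10 promoters of replication genes held E2F letters in 40% and CCAAT in 70%. The 17 promoters of G2 and mitosis genes past the threshold held them in 11.8% and 88.2%. A match is a string of letters and not a measured site. The genes shown were picked among members past the threshold because they hold the searched letters in the printed stretch. The 150 bases before the start of a pair of genes of each kind are given on the gene's strand, with the searched letters of that kind in capitals.
Aurka, chr2:172370571-172370720, minus strand, CCAAT in capitals: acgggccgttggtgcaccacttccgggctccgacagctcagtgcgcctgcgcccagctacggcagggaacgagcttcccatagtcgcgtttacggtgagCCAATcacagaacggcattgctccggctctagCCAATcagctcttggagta
Ccnb2, chr9:70421555-70421704, minus strand, CCAAT in capitals: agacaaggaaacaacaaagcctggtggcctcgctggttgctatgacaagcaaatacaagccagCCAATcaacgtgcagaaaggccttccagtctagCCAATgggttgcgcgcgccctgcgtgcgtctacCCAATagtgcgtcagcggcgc
Uhrf1, chr17:56303187-56303336, plus strand, E2F letters in capitals: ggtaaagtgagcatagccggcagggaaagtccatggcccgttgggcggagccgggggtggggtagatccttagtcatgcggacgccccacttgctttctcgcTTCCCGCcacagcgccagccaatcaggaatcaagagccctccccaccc
Rrm1, chr7:102441545-102441694, plus strand, E2F letters in capitals: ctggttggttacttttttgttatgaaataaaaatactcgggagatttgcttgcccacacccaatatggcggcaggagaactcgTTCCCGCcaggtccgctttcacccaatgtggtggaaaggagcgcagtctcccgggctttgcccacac
The Aurka window holds 2 CCAAT matches on this strand and the Ccnb2 window 3, and each of the others holds 1 E2F match. Windows of Cenpe and Mki67, with 1 CCAAT match each, and of Mcm5, with 1 E2F match, are not shown. Rrm1, a ribonucleotide reductase subunit, fell 17.9-fold from 259 ± 57.1 to 14.4 ± 13.8 CPM (edgeR adjusted p = 0.0256), a call lost in 6 of the 8 fits without 1 region sample (adjusted p up to 0.0736).

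Of 22 tested chromatin enzymes and chromatin proteins 3 were lower and 0 higher. H2afx, a histone variant of DNA repair, fell 15.7-fold from 69.1 ± 38.5 to 4.40 ± 2.67 CPM (edgeR adjusted p = 0.00400). Hmgb2 and Cbx5 were also called, and both calls were lost in most fits without 1 region sample (7 and 6 of 8, adjusted p up to 0.107 and 0.108). Without any 1 embryonic replicate or without replicate 1 of 16 weeks, 1 member was lower. Without cycling cells 0 of the 22 passed. Of 10 tested genes of a fetal growth programme 2 were lower. Lin28b, an RNA-binding protein of fetal cells, had 16.6, 9.29, 17.4 and 5.69 CPM in embryos and 0, 0.156, 0.496 and 0 CPM at 16 weeks (edgeR adjusted p = 0.0286). Hmga1, an architectural chromatin protein, fell 6.96-fold (edgeR adjusted p = 0.0373). Both calls were lost without cycling cells and in 7 of the 8 fits without 1 region sample, with adjusted p up to 0.0805 and 0.113 in the latter.

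Among transcription factors of microglia and macrophages 7 of 22 tested were higher at 16 weeks and 0 lower (median log2 change 0.551). Mef2a, a MADS-box factor, rose 4.59-fold, from 131, 149, 207 and 206 CPM to 893, 720, 966 and 602 CPM (edgeR adjusted p = 0.000225). Every adult value exceeded every embryonic one. Cebpa, a myeloid lineage factor, rose 3.18-fold from 38.3 ± 11.6 to 122 ± 18.5 CPM (edgeR adjusted p = 0.0105) and Irf5, an interferon regulatory factor, 1.92-fold from 318 ± 78.5 to 611 ± 47.1 CPM (edgeR adjusted p = 0.0140). Spi1, which encodes PU.1 and is required for the whole lineage, did not pass, with 409 ± 75.5 and 312 ± 45.8 CPM (edgeR adjusted p = 0.249). Irf8 had 447 ± 22.2 and 656 ± 142 CPM (edgeR adjusted p = 0.0668). The calls of Smad3, Klf6 and Bhlhe41 were lost in 7, 7 and 8 of the 8 fits without 1 region sample, with adjusted p up to 0.100, 0.125 and 0.115. The list then held 4 to 6 higher members, and 4 without embryonic replicate 1, 2, 3 or 4 or replicate 1 or 4 of 16 weeks.

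Transforming growth factor beta maintains the adult state of microglia, and its signalling genes were higher in 5 of 16 tested cases and lower in 0 (median log2 change 0.955). The receptors were among them. Tgfbr1 rose 2.03-fold, from 714, 640, 845 and 537 CPM to 1283, 1395, 1514 and 1359 CPM (edgeR adjusted p = 0.00206). Tgfbr2 went from 559, 316, 298 and 397 CPM to 659, 664, 743 and 842 CPM, 1.85-fold (edgeR adjusted p = 0.0254). The 2 ages did not overlap for either. Skil, a feedback repressor of the pathway, rose 2.30-fold from 118 ± 11.3 to 272 ± 88.8 CPM (edgeR adjusted p = 0.0144). Smad3, the signal transducer, and Itgav, an integrin chain that releases the latent ligand, rose 2.07-fold and 2.87-fold. The ligand Tgfb1 did not pass, at 13.3 ± 9.19 and 32 ± 4.26 CPM (edgeR adjusted p = 0.308). Leaving out 1 region sample ended the call of Tgfbr2 in 6 of 8 fits (adjusted p up to 0.0897), of Itgav in 6 (up to 0.0898) and of Skil without embryonic replicate 1 or 4 (0.0514 and 0.0520). It left 2 to 4 members called, 2 of them without any 1 embryonic replicate or without replicate 1 or 4 of 16 weeks, and 3 without replicate 2 of 16 weeks. Without cycling cells 3 were called.

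Purinergic and chemokine receptors were higher in 7 of 17 tested cases and lower in 1. Beyond P2ry12, P2ry13 and Cx3cr1, Ccr6, the receptor for CCL20, rose 13-fold from 29.2 ± 18.2 to 381 ± 165 CPM (edgeR adjusted p = 0.00302). Adora3, an adenosine receptor, rose 2.74-fold from 77.4 ± 23.9 to 212.4 ± 49.2 CPM (edgeR adjusted p = 0.0143; 0.0575 without embryonic replicate 2). Entpd1, the ectonucleotidase CD39, rose 1.67-fold from 507 ± 89.1 to 845 ± 156 CPM (edgeR adjusted p = 0.0274), a call lost in 5 of the 8 fits without 1 region sample (adjusted p up to 0.0919). Without embryonic replicate 2, 4 members of the list were higher, and 2 or 3 were lower without embryonic replicate 3 or replicate 2 or 4 of 16 weeks. Cxcr2, a receptor for neutrophil chemokines, was the 1 lower gene, with 98.2, 103, 65.9 and 78.7 CPM in embryos and 0 reads in all 4 region samples of 16 weeks. It was at least 815-fold lower (edgeR adjusted p = 0.000196). Reads were found in 35 of 158 thinned embryonic cells and in 0 of 147 cells of 16 weeks, which allows a share of up to 2.04%. Cxcr2 spans bases 74153989 to 74161246 of chromosome 1 on GRCm38.

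Pattern receptors were higher in 4 of 19 tested cases and lower in 1 (median log2 change 1.09). Cd14, the co-receptor for lipopolysaccharide, rose 5.65-fold, from 106, 98.6, 114 and 114 CPM to 626, 459, 539 and 822 CPM (edgeR adjusted p = 6.09e-05), and had reads in 46.8% and 85.7% of thinned cells. Tlr3, a sensor of double-stranded RNA, rose 9.89-fold, from 23.4, 20, 18.2 and 14.8 CPM to 213.5, 224, 52.5 and 268 CPM (edgeR adjusted p = 0.00205). Replicate 3 of 16 weeks was the lowest of its age and still above the embryos. Tlr13, a sensor of bacterial ribosomal RNA, rose 2.59-fold and Tlr2, a lipopeptide sensor, 2.02-fold, the call of Tlr2 being lost in 4 of the 8 fits without 1 region sample (edgeR adjusted p up to 0.0752). Tlr4, the receptor that signals for lipopolysaccharide, had 89.8 ± 19.8 and 218.3 ± 134 CPM and did not pass (edgeR adjusted p = 0.0772). Lbp, a lipopolysaccharide-binding protein, fell 126-fold, from 62.7, 36.5, 96.9 and 9.23 CPM to 0, 0, 1.36 and 0.162 CPM (edgeR adjusted p = 0.0122).

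Fc receptors and inhibitory receptors of immune cells were higher in 5 of 19 tested cases and lower in 0. Vsir, the checkpoint receptor VISTA, rose 2.36-fold, from 1538, 1420, 1689 and 1262 CPM to 3450, 3424, 3102 and 3993 CPM (edgeR adjusted p = 0.000217). Lair1, an inhibitory collagen receptor, rose 3.46-fold from 406 ± 73.0 to 1405 ± 328 CPM (edgeR adjusted p = 0.000435). Siglech, a sialic acid receptor of microglia, rose 2.09-fold (edgeR adjusted p = 0.00148) and Havcr2, the receptor TIM-3, 2.02-fold (edgeR adjusted p = 0.0122). Fcgr1, the high-affinity receptor for IgG, rose 1.70-fold from 603 ± 126 to 1025 ± 73.2 CPM (edgeR adjusted p = 0.0151; 0.0587 without embryonic replicate 1).

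Of 25 tested cytokine and growth factor receptors 11 were higher and 0 lower (44% of the list called; median log2 change 0.732). Il17ra, the shared chain of interleukin 17 receptors, rose 3.70-fold, from 92.2, 98, 64.7 and 136 CPM to 350, 369, 392 and 337 CPM (edgeR adjusted p = 0.000905). Il6st, the signalling chain gp130, rose 3.13-fold, from 90.6, 95.5, 148 and 123 CPM to 321, 479, 313 and 320 CPM (edgeR adjusted p = 0.00189). Csf3r, the receptor for granulocyte colony-stimulating factor, rose 2.39-fold (edgeR adjusted p = 0.00196). Ifngr1, a chain of the interferon gamma receptor, rose 2.12-fold from 931 ± 80.9 to 1975 ± 538 CPM (edgeR adjusted p = 0.00754). The other 7 were Ifnar2, Il13ra1, Il10rb, Il6ra, Csf1r, Ifnar1 and Il7r. The calls of these 7 were each lost in 2 to 7 of the 8 fits without 1 region sample, and such fits left 4 to 8 members called, 7 or fewer without any 1 region sample except embryonic replicate 1. Without cycling cells 6 of 24 were higher. The lowest counts among the fits without 1 region sample, 4, 5 and 5, came without embryonic replicate 4, embryonic replicate 2 and replicate 2 of 16 weeks.

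Genes of MHC class I presentation were higher in 4 of 18 cases and lower in 0 (median log2 change 1.20). H2-D1, a classical class I heavy chain, rose 2.9-fold, from 373, 464, 346 and 312 CPM to 913, 1161, 1112 and 1147 CPM (edgeR adjusted p = 0.000247). H2-K1, the other classical chain, rose 2.54-fold from 176 ± 36.6 to 446 ± 70.6 CPM (edgeR adjusted p = 0.00230). Reads could be split between these near-identical genes, so their separate levels are uncertain. H2-T23, a nonclassical chain, rose 16.7-fold from 4.64 ± 4.56 to 77.6 ± 32.7 CPM (edgeR adjusted p = 0.0136; 0.0510 and 0.0528 without embryonic replicate 1 or 4). Tapbp, tapasin, rose 2.12-fold (edgeR adjusted p = 0.0213), a call lost in 4 of the 8 fits without 1 region sample (adjusted p up to 0.0733). B2m, the shared light chain, had 1595 ± 55.7 and 1975 ± 178 CPM (edgeR adjusted p = 0.0882). Without embryonic replicate 4, 2 members were called.

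Of 8 tested class II genes 1 was higher, and 2 without embryonic replicate 3. H2-Ob, a chain of the peptide-loading modulator DO, rose 38.0-fold, from 7.95, 8.31, 0 and 15.2 CPM to 134, 334, 324 and 407 CPM (edgeR adjusted p = 0.0107), with reads in 6 of 158 and 60 of 147 thinned cells. Cd74, the invariant chain, did not pass, at 20.9 ± 9.15 and 44.0 ± 38.0 CPM (edgeR adjusted p = 0.412). Of 13 tested genes of the type I interferon response Rnf213, a large ubiquitin ligase, was higher by 6.25-fold (edgeR adjusted p = 0.0103) and 0 were lower.

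Of 15 tested chemokines and cytokines 1 was higher and 1 lower, and 2 were higher without replicate 3 of 16 weeks. Tnfsf13b, the B cell factor BAFF, went from 0, 0.0698, 0.558 and 1.87 CPM in embryos to 237, 102, 160 and 174 CPM at 16 weeks, a 265-fold rise (edgeR adjusted p = 0.00126). It had reads in 2 of 158 and 56 of 147 thinned cells, so that reads were found in a share of adult cells and in few embryonic ones. Ccl12, a monocyte chemokine with close copies in the genome, fell 6.10-fold from 142 ± 76.4 to 23.3 ± 12.5 CPM (edgeR adjusted p = 0.0173; 0.0594 without embryonic replicate 3).

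**Figure D3:**
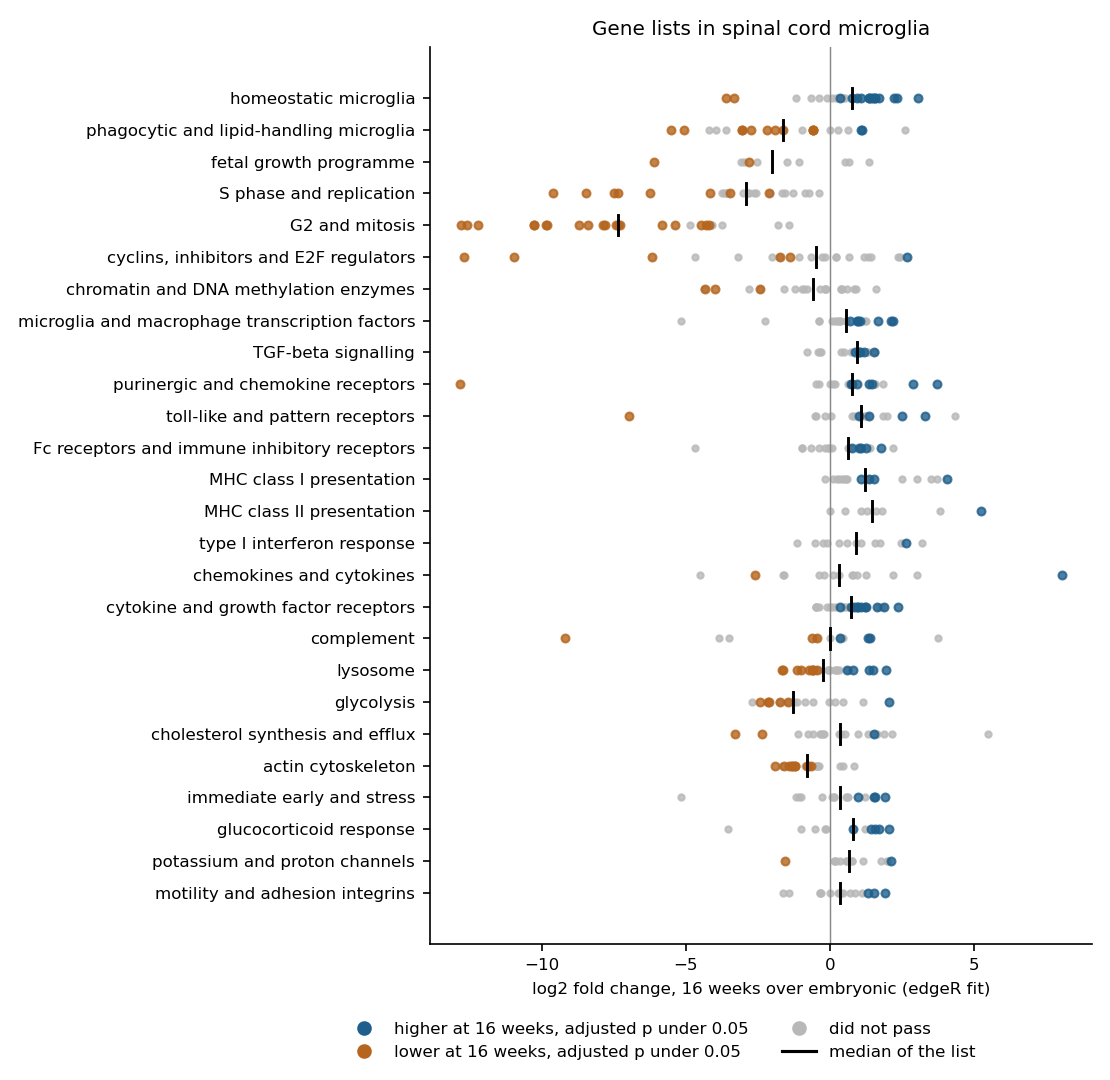
Log2 fold change from embryos to 16 weeks (x axis) of every tested member of the 26 lists with at least 8 tested members; blue points passed as higher, brown points as lower, grey points did not pass, and black lines are list medians. Lists of cell division lie to the left, with a median of -7.35 for G2 and mitosis, and receptor lists and MHC class I genes to the right of 0. Points of genes with 0 reads at 16 weeks have positions that depend on the fit.

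Glycolysis genes were lower in 5 of 18 cases and higher in 1 (median log2 change -1.29). Pkm, pyruvate kinase, fell 5.33-fold, from 427, 542, 587 and 597 CPM to 97.6, 99.6, 70.1 and 137 CPM (edgeR adjusted p = 0.000194). Aldoa, aldolase, fell 4.40-fold from 745 ± 105 to 169 ± 55.2 CPM (edgeR adjusted p = 0.000529) and Tpi1, triosephosphate isomerase, 4.31-fold from 363 ± 71.0 to 84.2 ± 28.9 CPM (edgeR adjusted p = 0.00206). Ldha, lactate dehydrogenase, fell 3.34-fold (edgeR adjusted p = 0.00116) and Gpi1, glucose phosphate isomerase, 2.71-fold. The gene that rose was Pfkfb3, which makes an activator of phosphofructokinase, 4.13-fold from 27.3 ± 11.5 to 113 ± 42.7 CPM (edgeR adjusted p = 0.0181). Its call was lost without embryonic replicate 2 or 4 or replicate 3 of 16 weeks (adjusted p 0.0653, 0.0518 and 0.0539). Gapdh, with many copies in the genome, was counted at 9.06 ± 5.38 and 12.6 ± 5.82 CPM, and its level is uncertain for that reason.

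Genes of the actin cytoskeleton were lower in 10 of 20 cases and higher in 0 (median log2 change -0.777). Actb, cytoplasmic actin, fell 2.29-fold, from 16590, 16510, 15550 and 14780 CPM to 7142, 6563, 6612 and 7346 CPM (log2 -1.20, SE 0.07; edgeR adjusted p = 1.88e-05). Per kilobase its level went from rank 3 to rank 14. Cfl1, which encodes cofilin and severs actin filaments, fell 3.72-fold from 830 ± 75.2 to 223 ± 17.1 CPM (edgeR adjusted p = 2.95e-05), Tmsb4x, which holds actin monomers, 2.31-fold and Pfn1, profilin, 2.67-fold. Arpc2, a subunit of the branching complex, fell 2.48-fold. Tubb5, a tubulin of dividing and growing cells, fell 6.02-fold, from 1811, 2158, 1710 and 2449 CPM to 401, 260, 287 and 402 CPM (edgeR adjusted p = 3.19e-05).

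Immediate early and stress genes, which respond to cell isolation as well as to signals, were higher in 4 of 16 tested cases and lower in 0. The calls of this list depended on single region samples. Nfkbia, the inhibitor of NF-kappaB, rose 2.97-fold from 55.1 ± 6.91 to 164 ± 56.4 CPM (edgeR adjusted p = 0.0124), Junb, an AP-1 subunit, 3.74-fold from 37.6 ± 18.4 to 141 ± 37.0 CPM (edgeR adjusted p = 0.0187) and Zfp36, which speeds decay of cytokine messages, 2.86-fold from 75.8 ± 17.8 to 216.5 ± 98.1 CPM (edgeR adjusted p = 0.0227). With Klf6 these are the 4 calls: 0 were left without embryonic replicate 2 and 1 without replicate 3 of 16 weeks. Without embryonic replicate 1 or 4 or replicate 4 of 16 weeks 2 were left. Jun had 56.9 ± 10.2 and 89.1 ± 25.9 CPM (edgeR adjusted p = 0.300).

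Glucocorticoid response genes were higher in 5 of 11 tested cases and lower in 0 (median log2 change 0.803). Of the 11 changes, called or not, 6 were above 0 and 5 below. Nr3c1, the glucocorticoid receptor, rose 3.27-fold, from 87.1, 62.9, 61.5 and 52.7 CPM to 278, 120, 304 and 163 CPM (edgeR adjusted p = 0.0111). Sgk1, a kinase induced by the hormone, rose 2.66-fold, from 459, 185, 235 and 252 CPM to 855, 824, 602 and 727 CPM (edgeR adjusted p = 0.00954). Both held in every fit without 1 region sample. Txnip, a regulator of glucose uptake, rose 1.74-fold (edgeR adjusted p = 0.0289), and Cebpd 4.14-fold (edgeR adjusted p = 0.0425), calls lost in 6 and 7 of the 8 fits (adjusted p up to 0.0966 and 0.123). The list then held 2 to 4 higher members, 3 of them without embryonic replicate 1 or 4 or replicate 3 of 16 weeks and 2 without embryonic replicate 2. Without cycling cells 3 were called.

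Channels and adhesion genes changed in few cases. Of 14 tested potassium and proton channels and related genes Hvcn1, a proton channel, was higher by 4.37-fold (edgeR adjusted p = 0.0151; 0.0527 and 0.0581 without embryonic replicate 1 or 2). Lrrc8a, a volume-regulated anion channel subunit, was lower by 2.94-fold, from 78.9 ± 8.73 to 26.8 ± 2.82 CPM (edgeR adjusted p = 0.0149; 0.0689 without embryonic replicate 2). Of 16 tested integrins and adhesion genes Itgb2, Itgav and Jam2 were higher and 0 lower, and 1 or 2 without 1 region sample. Jam2, a junctional adhesion molecule, went from 96.9 ± 63.4 to 365 ± 194 CPM (edgeR adjusted p = 0.0482) and lost its call in 7 of the 8 fits without 1 region sample (adjusted p up to 0.132).

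Some genes named for other cells changed within these sorted cells. Ighm, the immunoglobulin heavy chain of B cells, fell 1.92-fold from 1179 ± 148 to 613 ± 88.0 CPM (edgeR adjusted p = 0.00301) and had reads in 149 of 158 and 100 of 147 thinned cells, with reads in 1 of 8 blank wells. B cell markers gave mixed values. Cd79b, a chain of the B cell receptor complex, had reads in 65 of 158 and 11 of 147 thinned cells and in 0 of 8 blank wells, and led the B cell markers with a mean of 103.6 and 56.6 CPM, while Cd79a had 0 reads at both ages. The part of B cells in the Ighm values was not tested. Slc1a3, a glutamate transporter of astrocytes, rose 5.95-fold from 31.6 ± 18 to 188 ± 78.1 CPM (edgeR adjusted p = 0.0106), a call lost without cycling cells (edgeR adjusted p = 0.0843). The 4 astrocyte markers summed to 0.640 to 29.7 CPM in embryos and 0.315 to 26.8 CPM at 16 weeks, led by Aldh1l1, with Aqp4 and Gfap at 0 at 16 weeks. The part of astrocyte RNA in the rise of Slc1a3 was not tested. Fn1, fibronectin, fell 100-fold, from 23.6, 63.1, 57.9 and 15.3 CPM to 1.22, 0.313, 0 and 0 CPM (edgeR adjusted p = 0.0122; 0.0503 without embryonic replicate 2). Fabp7, a fatty acid carrier of astrocytes, and Ighd, the heavy chain of IgD, were called lower. Fabp7 was called in 0 of the 8 fits without 1 region sample, its level being too low for a test in 4 of them, and Ighd lost its call in 7. The members of the oligodendrocyte, endothelial and neuron lists with enough counts for a test, 4, 3 and 1 genes, gave 0 calls by edgeR, except that 1 oligodendrocyte gene was higher without replicate 4 of 16 weeks. DESeq2, which tested 12 neuron and 10 oligodendrocyte genes, called 4 neuron genes lower and 1 oligodendrocyte gene higher. Of the lists above with 0 lower members, 5 held 1 lower member without 1 region sample of 16 weeks: transcription factors without replicate 2, Fc and inhibitory receptors without replicate 2 or 3, glucocorticoid genes without replicate 1, and early response genes and integrins without replicate 4.

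Other genes with the smallest p-values rose. Malat1, a nuclear noncoding RNA, rose 3.78-fold, from 1423, 1059, 1251 and 1399 CPM to 4652, 4925, 5307 and 4523 CPM (edgeR adjusted p = 1.88e-05). Srgap2, which shapes cell protrusions, rose 4.44-fold from 289 ± 24.1 to 1285 ± 152 CPM. Col27a1, a fibrillar collagen gene, rose 12.7-fold from 25.2 ± 2.98 to 320 ± 74.0 CPM (edgeR adjusted p = 2.45e-05). Ddx5, an RNA helicase, rose 2.38-fold. Hsp90ab1 and 3 ribosomal proteins were among the falls with the smallest p-values, with Rps3 lower by 2.89-fold, Rplp0 by 3.38-fold, Rpl8 by 3.14-fold and Hsp90ab1, a chaperone, by 2.73-fold from 1703 ± 68.4 to 624 ± 59.0 CPM. Reads of ribosomal genes may be shared with pseudogene copies.

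The largest rises were of genes near absent in embryos. Hcar2, a receptor for hydroxybutyrate and niacin, went from 2.52, 3.14, 0 and 0 CPM to 321, 303, 375 and 180 CPM, a 204-fold rise (edgeR adjusted p = 0.00251), with reads in 2 of 158 and 55 of 147 thinned cells. Tgm2, a transglutaminase, rose 386-fold from 0.301 ± 0.229 to 120 ± 89.5 CPM (edgeR adjusted p = 0.000225). Thrsp, a regulator of lipid synthesis, rose 566-fold from 0.206 ± 0.244 to 120 ± 79.4 CPM (edgeR adjusted p = 0.000760). Ccdc80, a secreted matrix protein, rose 157-fold, and Atp8b1, a lipid flippase, and Tmem204 149-fold and 113-fold. Tmem8c, a fusion protein of muscle, had 1 read in embryos and 1437 at 16 weeks, a ratio of 2912 with a counting interval of 521.8 to 115100. These reads lay in 13 of 165 cells, and 40% of them in 1 cell. The calls of Atp8b1 and Tmem204 were each lost in 4 of the 8 fits without 1 region sample (adjusted p up to 0.0735 and 0.0732).

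Slc34a2, a phosphate transporter of epithelia, rose 6.21-fold, from 453, 544, 763 and 474 CPM to 3253, 3352, 3581 and 3677 CPM (edgeR adjusted p = 1.88e-05). The gene also had reads in 8 of 8 blank wells of the 2 plates. It made up 45.9% of all counts of the blank wells on the embryonic plate and 88.9% of those on the 16-week plate, with a median of 3894 and 2644 reads per blank well against 126.5 and 540 per cell. Every one of the 174 and 165 cells had Slc34a2 reads. The part of the blank-well signal in this rise was not tested.

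The 3-week spinal cord, with 3 region samples and 175 cells on another plate, gives levels at an age between these. They are scaled over all 51 region samples, so they differ slightly from those above, and no test was made with them. Selplg had 830 ± 149, 7202 ± 422 and 6574 ± 415 CPM at the 3 ages and Tmem119 1315 ± 239, 5736 ± 383 and 5782 ± 369 CPM, with the later ages overlapping for both. Crybb1 had 574 ± 154, 75.8 ± 7.54 and 45.1 ± 7.79 CPM, with no overlap, and Lyz2 457 ± 140, 110 ± 27.3 and 95 ± 54.0 CPM, with the later ages overlapping. Fcrls and Apoe lay between: Fcrls had 5201 ± 391, 2481 ± 544 and 488 ± 186 CPM and Apoe 17520 ± 1648, 3032 ± 1048 and 498 ± 646 CPM, with no overlap between neighbouring ages. H2-D1 had 366 ± 61.5, 566 ± 166 and 1004 ± 95.7 CPM, overlapping between embryos and 3 weeks. Hcar2 had 1.39 ± 1.62, 72.8 ± 17.5 and 274 ± 78.5 CPM, with no overlap. Sgk1 was highest at 3 weeks, without overlap, at 279 ± 128, 1849 ± 47.9 and 698 ± 108 CPM.

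**Figure D4:**
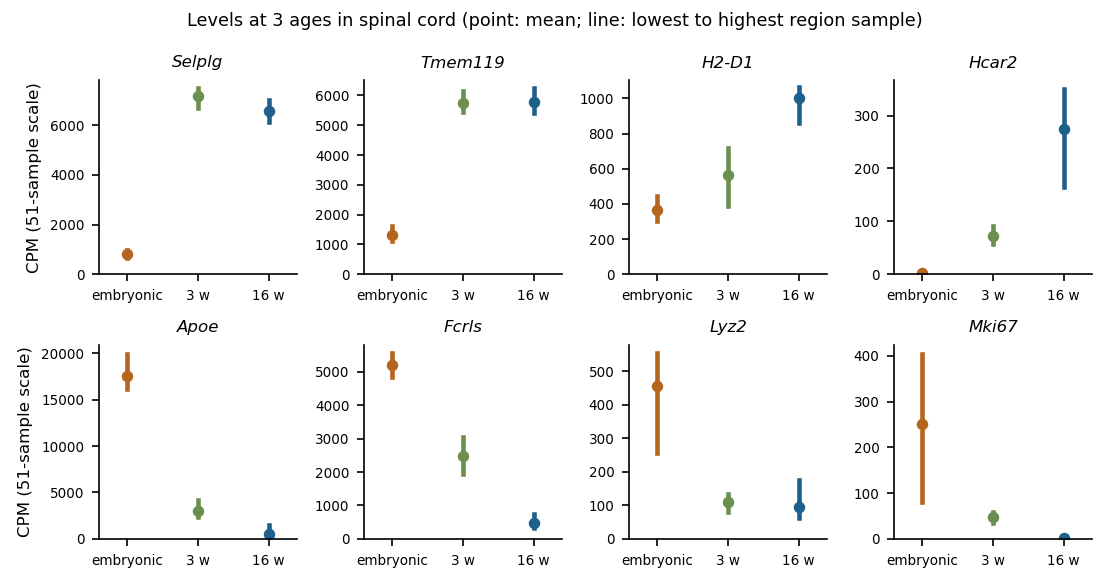
CPM scaled over all 51 region samples (y axes) of 8 genes in embryonic, 3-week and 16-week spinal cord; points are means and lines run from the lowest to the highest region sample. Selplg and Tmem119 overlap between 3 and 16 weeks, while Apoe, Fcrls, H2-D1 and Hcar2 lie between the outer ages.

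Whether these age changes belong to the spinal cord was asked against cerebellum, the one other region sampled at both ages, which lay on the same plates. The difference of the age changes was tested over 16 region samples. By edgeR 0 of 14093 genes passed (0% called), 956 had an unadjusted p under 0.05 and the lowest adjusted p was 0.0963. With DESeq2 162 genes passed and with edgeR without a filter on low counts 5 did. Within cerebellum alone the age comparison called 1385 of 11811 genes (11.7%), 570 higher and 815 lower. Selplg rose by log2 3.11 there and 3.07 in spinal cord, and the difference was -0.06 (SE 0.15). Tmem119 differed by 0.14 (SE 0.15), Apoe by -0.26 (SE 1.03) and Crybb1 by -0.14 (SE 0.47). Fcrls changed by log2 -3.34 in spinal cord and by -2.64 in cerebellum, a difference of -0.71 (SE 0.30; edgeR adjusted p = 0.693).

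The genes nearest to a regional difference were Cand2 and Gas2l3, both with an edgeR adjusted p of 0.0963. Cand2, an assembly factor of ubiquitin ligases, fell 143-fold in spinal cord, from 41.7, 39.7, 26.4 and 26.9 CPM to 0, 0.313, 0.124 and 0.487 CPM, and by log2 -0.79 in cerebellum. Gas2l3, a linker of actin and microtubules, had 26.5 ± 26.6 and 19.1 ± 10.6 CPM in spinal cord, while in cerebellum it had 0 reads at 16 weeks. With 0 reads in that group, the size of its difference between regions, log2 10.98 (SE 1.69), depends on the fit. Without replicate 1 of the 16-week spinal cord 1 gene passed the test of the difference. The share of cycling cells was 11.6% to 26.1% in embryonic cerebellum and 0% in all 4 region samples of cerebellum at 16 weeks.

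**Figure D5:**
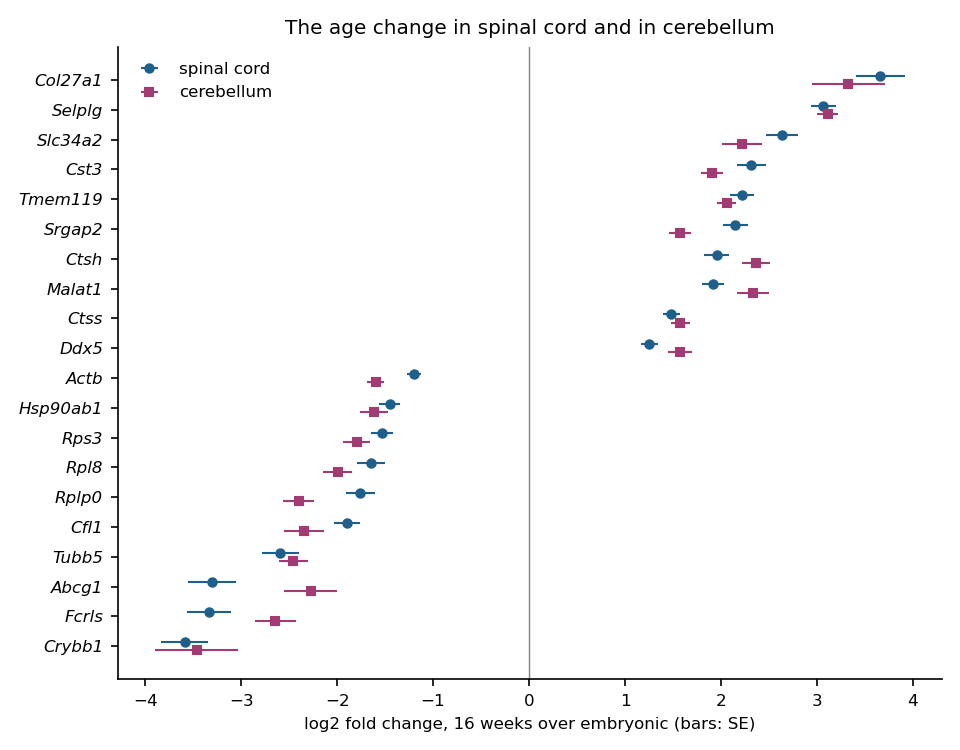
Log2 fold change from embryos to 16 weeks (x axis) with standard errors in spinal cord (circles) and cerebellum (squares) for 20 of the 24 genes with the smallest p in spinal cord; Aurka and Ccnf are among the 4 left out, since their spinal cord changes are off the scale. All 20 have the same sign in both regions, and edgeR called none of the differences between regions.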

How the data were processed

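The deposited table gives raw counts of reads for each gene in each well. Per the submitters' processing notes, the tools were STAR 2.5.2b and featureCounts 1.6.2, with GRCm38 as the genome. Whether counting used strand is not given in the sources used here. The table also gives each gene's span and exon length, by which CPM were divided for levels per kilobase. Wells of plate columns 1 and 2 were corrected by subtracting the counts of same-plate wells with names that start the same, which touched 0 spinal cord wells of the 2 ages (columns 13 to 24). Wells with at least 500 genes and at most 20% mitochondrial counts were kept, no doublet caller was run, and counts were summed per region sample, the unit of every test. Tests used edgeR 4.0.16 in R 4.3.3 (TMM, filterByExpr, robust quasi-likelihood F test, two-sided, no replicate term), and standard errors were taken from its F statistics. DESeq2 1.42.0 was an alternative. The series' design speaks of replicate mice without tying a replicate number to 1 mouse, so p-values measure only the spread between these region samples. Counting intervals and limits cover counting error only. They take reads or cells as independent, though many reads of a gene can come from 1 cell, and leave out the spread between region samples. Named genes are the 12 rises and 12 falls with the smallest p, the 8 of each with the largest fold among non-overlapping calls with a mean of at least 20 CPM, up to 4 called members per list, and further list members chosen after their values were seen. Members and lists were chosen with earlier results of these data known. Alternatives were another scaling, filters on genes and wells, thinned cells, leaving out cycling cells, other samples in the fit, a replicate block and each region sample left out. Values of 4 genes that these rules or lists name are not reported here.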

Additional observations from a re-analysis of the deposited data

Results flagged for a closer look

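Slc34a2 reads in blank wells, which no comparison uses, made up 45.94% of the blank-well counts on the embryonic plate and 88.9% on the 16-week plate. The values in cells stand in the report, and the part of this signal in the rise of Slc34a2 was not tested.

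In 29 of 378 groups of 4 region samples (7.67%), 1 region sample stood far from the other 3 of its age by Dixon's criterion. The criterion flags about 1 in 20 groups of 4 normally distributed values, a rate that need not hold for CPM. A group with reads in only 1 region sample is always flagged. Embryonic replicates 1 to 4 gave 1, 0, 6 and 2 of the flagged groups and replicates 1 to 4 of 16 weeks gave 5, 3, 7 and 5. No explanation of any was tested.

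Among microglial and lipid genes, Cst3 had 47810 CPM in replicate 1 of 16 weeks against 33230 to 35580 in the others. Sall1 had 265.3 CPM in replicate 4 of 16 weeks against 462.7 to 502.3. Spp1 had 292.0 CPM in replicate 3 of 16 weeks against 0. Lyz2 had 190.9 CPM in replicate 2 of 16 weeks against 65.8 to 85.68. Msmo1 had 63.5 CPM in embryonic replicate 3 against 23.88 to 30.39. Grn was low in embryonic replicate 4, at 3769 CPM against 4409 to 4516. Psap had 4997 CPM in replicate 4 of 16 weeks against 3354 to 3574, and Npc2 544.7 CPM in replicate 3 against 650.3 to 663.0.

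Immune and regulatory genes gave others. Ccl12 had 255.6 CPM in embryonic replicate 3 against 96.1 to 119.8, and Tlr4 60.16 CPM in embryonic replicate 4 against 98.72 to 100.4. Il6st had 479.1 CPM in replicate 2 of 16 weeks against 313.1 to 320.9, and Klf6 136.9 CPM there against 195.1 to 206.6. Irf5 had 540.5 CPM in replicate 3 of 16 weeks against 632.1 to 639.2, and Lbp 1.364 CPM there against 0 to 0.1623. Tpi1 had 41.02 CPM in replicate 1 of 16 weeks against 96.29 to 101.6.

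Among genes of division, embryonic replicate 3 was low for Ccnb2, at 52.83 CPM against 125.1 to 130.7, and for Cep55, at 5.498 CPM against 60.55 to 67.09. Pcna had 14.76 CPM in replicate 1 of 16 weeks against 23.69 to 24.18. The rest of this kind were traces at 16 weeks, with the other 3 replicates at 0: Ccnb2 at 0.4868, Cdc20 at 6.815 and Nusap1 at 0.1623 CPM in replicate 4, Ccne2 at 1.116 CPM in replicate 3 and Gins2 at 0.1354 CPM in replicate 1.

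Genes of other cells and near-absent genes made up the remainder. Mrc1 had 12.19 CPM in replicate 1 of 16 weeks against 0 to 1.623. Fcna had 0.868 CPM in replicate 3 of 16 weeks against 0, and Pecam1 0.248 CPM there against 40.49 to 47.54. Cnp had 200.8 CPM in embryonic replicate 3 against 103.7 to 106.9. Tmem204 had 0.8764 CPM in embryonic replicate 3 against 0 to 0.06938, and Tmem8c 0.06459 CPM in embryonic replicate 1 against 0.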

How the results depend on the processing

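The count of 932 changed genes was 1942 with DESeq2 (898 higher, 1044 lower), 544 without cycling cells (268 higher, 276 lower) and 491 with a replicate block (225 higher, 266 lower). It was 502 to 829 without 1 region sample. The other alternatives gave 931 to 1227. Why these counts differ was not tested, and the fits without a region sample rest on fewer samples. Of 192 named genes 174 were called, and 0 of the called ones changed sign in the alternatives that tested them. The genes were chosen from these same data, and 923 of the 932 called genes had ranges that do not overlap. For such genes a fit without 1 region sample can hardly change the sign, so this 0 is no check of them. Sign changes of named genes that were not called were not counted. The threshold was no longer passed by 52 called genes with the block, 16 with DESeq2 and 31 to 55 without 1 region sample. Without cycling cells 174 of the 192 named genes were tested, 37 of which no longer passed, and 18 called genes had too few counts for a test. Embryos and adults are different animals, so replicate numbers pair nothing between the ages by design. Deviations of same-numbered embryonic and 16-week samples correlated at -0.007 to 0.009, and those of other numbers at -0.023 to 0.024. Same-numbered samples of spinal cord and cerebellum at the same age correlated at -0.016 to 0.043. Other numbers were not compared across regions, so whether the 2 regions shared mice was not tested. With the replicate block, lists whose count of higher members moved by over 1.5 times were cytokine receptors (5), transcription factors (3), TGF-beta signalling (2), glucocorticoid genes (2), and complement, early response genes and integrins (1 each). Lower members came to 7 for phagocytosis and lipid handling, 3 for cyclins, 1 for complement and chromatin genes and 0 for the fetal programme and border macrophage genes. With DESeq2, MHC class I genes had 7 higher members and class II genes 4, and lower members came to 14 for replication, 4 for lysosomal genes, 4 for the fetal programme and 8 for glycolysis.

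The test of the difference from cerebellum called 0 genes, 162 with DESeq2, 5 without a filter on low counts, 0 with a replicate block and 0 to 1 without 1 region sample. The cause was not tested. Without 1 region sample the difference in the share of cycling cells was -37.13 to -30.55 percentage points, in detected genes -1312 to -1197 and in the mitochondrial share -1.48 to -1.179 points, with p = 0.05714 by the exact permutation test in every case, which is the lowest value 35 splits can give. Every embryonic region sample holds more counts than any of 16 weeks, so genes at a few CPM are least certain at 16 weeks.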

Other observations

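Gene sets outside the lists, chosen after their values were seen and given with no test of the set, cover the machinery of translation and respiration. Of 74 tested proteins of the cytosolic ribosome 19 were lower at 16 weeks and 0 higher, with a median log2 change of -0.978. Of 72 tested nuclear genes of oxidative phosphorylation 20 were lower and 0 higher, with a median of -1.075. Of 44 tested translation initiation and elongation factors 11 were lower and 2 higher, Eif4a2 and Eif4e3, with a median of -0.687. Of 8 tested subunits of the chaperonin CCT, which folds actin and tubulin, 3 were lower. Of 14 tested SR proteins and Clk kinases, which regulate splicing, Srsf5, Clk1 and Srsf11 were higher, 0 lower, and the other 11 did not pass.

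Xist, the RNA that silences an X chromosome in female cells, had 542, 131, 626 and 323 CPM in the embryonic replicates and 1147, 1155, 1405 and 849 CPM at 16 weeks, a 2.81-fold difference (edgeR adjusted p = 0.0449). The labels give no sex. Tsix, its antisense partner, whose reads cannot be told from those of Xist without strand, was 5.04-fold higher (edgeR adjusted p = 0.0425). These calls were lost in 6 and 8 of the 8 fits without 1 region sample, with adjusted p up to 0.130 and 0.115.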
